A study of Mus musculus with 6 samples.

Results

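The report covers 10 mouse genes of the type 2 immune response, 5 that encode effector products (Siglec5, Arg1, Ccl8, Retnla and Retnlb) and 5 that encode signalling molecules (Il33, Il13ra1, Il4ra, Socs1 and Cish), out of 39179 genes in the deposited table. They were found by symbol. The genes were chosen by their RPKM in Sox2 KO and Sox2 WT as well as by their role. The differences between the groups are therefore described for them, and no p-value is read as a test of them. RNA was sequenced from the pylorus, where the stomach opens into the duodenum, in 3 Sox2 KO libraries and 3 Sox2 WT libraries. Sox2 KO mice carried Rosa26CreER and Sox2 fl/fl alleles, and Sox2 WT mice carried Rosa26WT and Sox2 fl/fl. All mice were of a C57BL/6 x 129 mixed background and were given tamoxifen at 8 weeks of age, with the stomach taken 2 weeks later, although the samples' age is labelled as 8 weeks and the series text gives 10 weeks. CreER is a Cre recombinase switched on by tamoxifen. The Rosa26 promoter is active in most cell types, so the deletion was not directed at one of them, and the Sox2 WT group had tamoxifen but no Cre. The muscle layer was peeled off after a cold incubation and RNA came from the epithelium and mesenchyme together. Whether the libraries came from separate animals is not in the labels, and p-values below measure only the spread between libraries, which may be technical.

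Type 2 immunity is the response to worms and allergens at barrier surfaces. Damaged epithelium and tuft cells release alarmins such as IL-33 and IL-25, innate lymphoid cells and T helper cells answer with IL-4, IL-5 and IL-13, and the receptors for IL-4 and IL-13 signal through JAK kinases to the transcription factor STAT6. STAT6 target genes then drive mucus secretion, chemokine release and the alternative activation of macrophages, and SOCS-family proteins turn the signal down.

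Sox2 was at 0.342, 0.210 and 0.420 RPKM in the Sox2 KO libraries, against 11.1, 9.03 and 10.9 RPKM in the Sox2 WT libraries. RPKM is reads per kilobase of gene, scaled to library depth, so levels can be compared between genes. All 10 markers fixed for pyloric epithelium, among them Gast and Muc5ac, passed the filter on low values. Values of single libraries stand in the order of replicates 1, 2 and 3 throughout. By Xist and the Y-linked gene Ddx3y all 3 Sox2 KO libraries came from males, while Sox2 WT replicate 1 came from a male and Sox2 WT replicates 2 and 3 from females, so sex and genotype cannot be told apart except against Sox2 WT replicate 1. The denominators behind the RPKM ran from 24.1 to 33.9 in units of 1e+06 reads. Over all 14045 genes with a mean of at least 0.5 RPKM, limma with Benjamini-Hochberg adjustment put 4 past an adjusted p of 0.05, or 0.0285%, and the median log2 fold change, given here as Sox2 KO minus Sox2 WT of log2(RPKM + 0.5), was 0.02.

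Siglec5, Arg1 and Ccl8 had higher values in every Sox2 KO library than in any Sox2 WT library, at 2.20 to 3.12 times the Sox2 WT mean. Socs1 and Retnlb were separated in the same way at low levels, Retnlb by at least 1, 3 and 16 reads against 0. Retnla was high in 1 Sox2 KO library, and Il33 in 1 Sox2 WT library. Il13ra1, Il4ra and Cish had Sox2 KO means within 1.16 times the Sox2 WT mean. In all, the 3 Sox2 KO values lay above the 3 Sox2 WT values for 5 of the 10 genes and below them for 0. Without Retnlb, which was under the filter, they lay above for 4 of 9, where 4.09% of all tested genes lay above and 2.99% below. Of the 10 genes, 9 passed the filter, and 0 of these were past an adjusted p of 0.05 by limma, where 0.0142% of tested genes were called higher and 0.0142% lower, or by voom on recovered reads, where 0.0572% were called. An unadjusted p under 0.05 was reached by 4 of the 9, where 3.15% of all tested genes reached it. Because the choice of genes used this contrast, these counts, also the 4 of 9, are no test of the genes, and nothing is read from them.

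**Figure D1:**
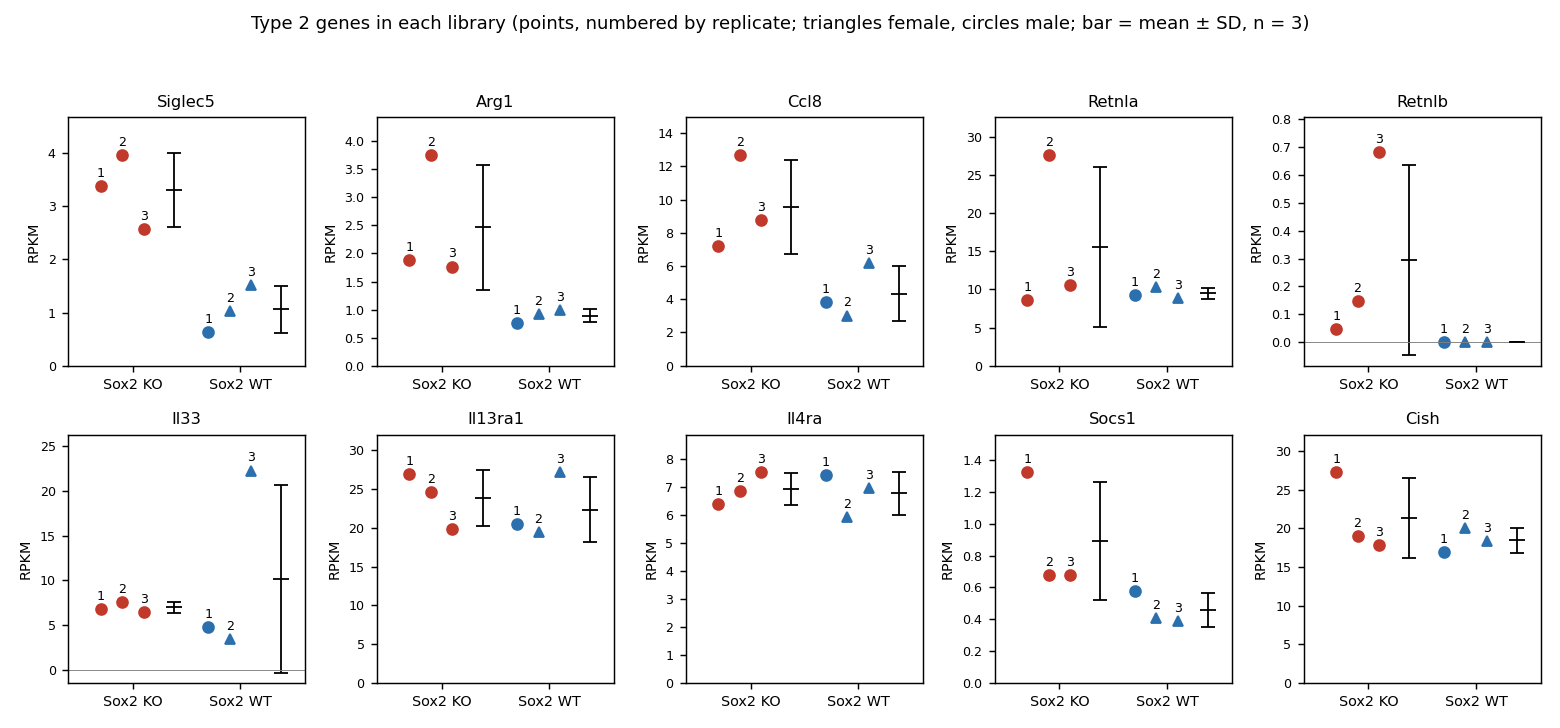
RPKM (vertical axes, from 0 or just below) of the 10 genes in 3 Sox2 KO libraries (left, red) and 3 Sox2 WT libraries (right, blue), each point numbered by replicate, with triangles for female and circles for male libraries and a bar for the mean ± SD. Siglec5, Arg1 and Ccl8 are separated between the groups, Retnla reached 27.6 RPKM in Sox2 KO replicate 2 alone, and Il33 reached 22.3 RPKM in Sox2 WT replicate 3 alone.

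Siglec5 is the deposited symbol of the gene now named Siglecf (ENSMUSG00000039013, chromosome 7, 43351341 to 43359531, GRCm38). It encodes Siglec-F, a sialic acid-binding receptor of mouse eosinophils that is also found on gut tuft cells. Its level was 3.37, 3.96 and 2.58 RPKM in the Sox2 KO libraries, from at least 277, 317 and 241 reads, against 0.631, 1.02 and 1.52 RPKM in the Sox2 WT libraries, from at least 42, 79 and 107 reads. The groups did not overlap, and the highest Sox2 WT library was 1 of the 2 from females. The Sox2 KO mean was 3.30 ± 0.692 RPKM and the Sox2 WT mean 1.06 ± 0.446 RPKM (SD, n = 3 each), a log2 fold change of 1.31. Against Sox2 WT replicate 1, the male library, it was 1.73. In bulk tissue, more cells of a type and more RNA per cell cannot be told apart.

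Most markers of eosinophils were low in these libraries, and 1 of the 8 passed the filter. Of the 8, the peroxidase gene Epx and the ribonuclease genes Ear1 and Ear6 were listed at 0 in all 6 libraries, and the granule protein gene Prg2 was at 0.403, 0.207 and 0 RPKM in the Sox2 KO libraries, against 0, 0.0429 and 0.0942 RPKM in the Sox2 WT libraries. Ear2, a ribonuclease gene whose reads may be split with its close relatives, was at 0.983, 0.432 and 0.247 RPKM in the Sox2 KO libraries, against 0.116, 0.0498 and 0.328 RPKM in the Sox2 WT libraries. The eotaxin receptor gene Ccr3 was at 1.22, 0.326 and 0.0270 RPKM in the Sox2 KO libraries, against 0.329, 0.0872 and 0.252 RPKM in the Sox2 WT libraries. Both overlapped between the groups and were highest in Sox2 KO replicate 1. The marker past the filter was Alox15, a lipoxygenase gene that is also a STAT6 target, at 1.47 to 3.09 RPKM over the 6 libraries. The summed list ran from 2.48 to 5.91 RPKM in Sox2 KO libraries and from 1.73 to 3.15 RPKM in Sox2 WT libraries, which overlap. The part of eosinophils in the Siglec5 values was not tested.

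The tuft cell markers were separated between the groups along with Siglec5. For 8 of the 9 tuft cell markers that passed the filter the 3 Sox2 KO values lay above the 3 Sox2 WT values, where 4.09% of all tested genes did. Of the 9, 0 passed the limma test over all genes. Trpm5, the cation channel of taste transduction, was at 3.49, 4.61 and 3.02 RPKM in the Sox2 KO libraries, against 1.23, 1.58 and 1.67 RPKM in the Sox2 WT libraries. The summed list ran from 164 to 208 RPKM in Sox2 KO libraries and from 114 to 196 RPKM in Sox2 WT libraries, most of it from Avil. These full sums overlapped. Without Avil the sums were 37.3, 46.2 and 35.0 RPKM in the Sox2 KO libraries, against 18.3, 20.9 and 21.3 RPKM in the Sox2 WT libraries, and did not overlap. Avil belongs to the list as fixed and is the tested marker whose groups overlapped. The sum without it was not planned, and leaving out that marker favours a separation, so it is no test. The part of tuft cells in the Siglec5 values was not tested.

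**Figure D2:**
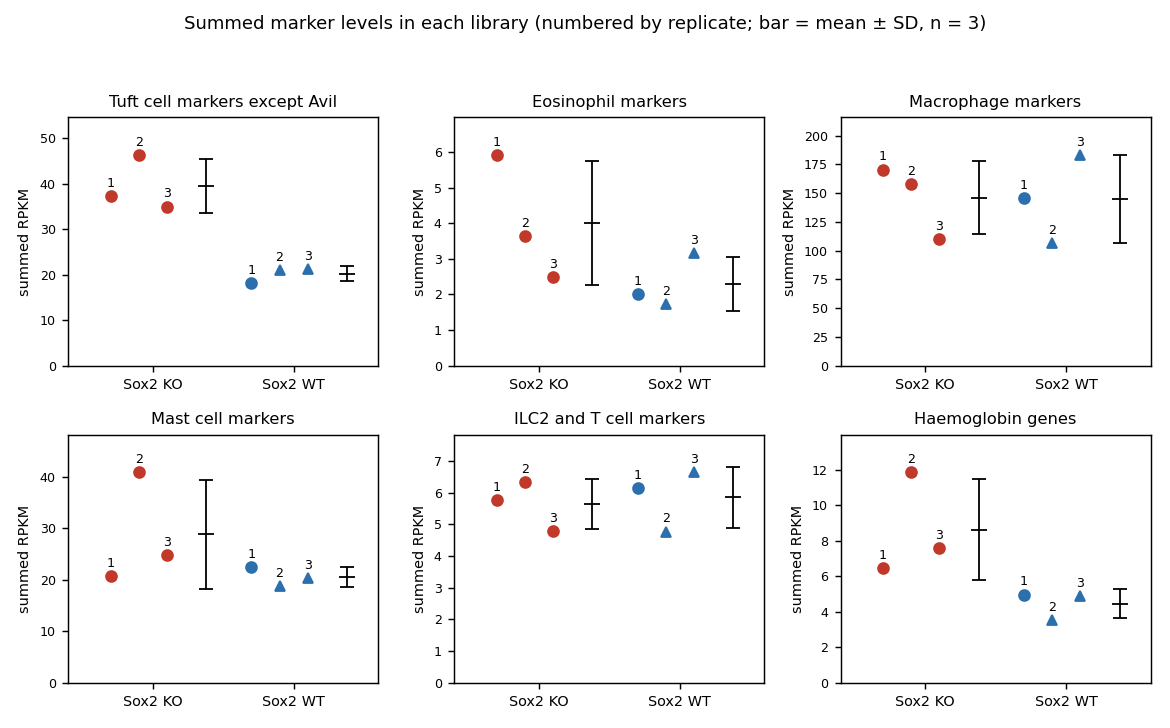
Summed RPKM of 6 marker lists (vertical axes, from 0) in 3 Sox2 KO libraries (left, red) and 3 Sox2 WT libraries (right, blue), points numbered by replicate, with triangles for female libraries and bars for the mean ± SD. The sums overlap between the groups for the eosinophil, macrophage, mast cell, and innate lymphoid and T cell lists, and do not overlap for the haemoglobin genes or for the tuft cell markers without Avil. With Avil, which the list as fixed includes, the tuft cell sums overlap. Avil was left out with its values known, so the separation without it is no test.

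Arg1 (ENSMUSG00000019987, chromosome 10, 24915221 to 24927484, GRCm38) encodes arginase 1, the arginine-splitting enzyme of alternatively activated macrophages. It was at 1.87, 3.75 and 1.77 RPKM in the Sox2 KO libraries, from at least 82, 160 and 88 reads, against 0.762, 0.923 and 0.988 RPKM in the Sox2 WT libraries, from at least 27, 38 and 37 reads. All 3 Sox2 KO libraries were above all 3 Sox2 WT libraries, and Sox2 KO replicate 2 stood well above the other two. The means were 2.46 ± 1.11 RPKM in Sox2 KO and 0.891 ± 0.116 RPKM in Sox2 WT (SD, n = 3 each), a log2 fold change of 1.03, or 0.74 without Sox2 KO replicate 2. Against the male Sox2 WT library it was 1.17. Arg2, the mitochondrial arginase gene, was at 1.91, 1.07 and 0.872 RPKM in the Sox2 KO libraries, against 0.292, 2.51 and 0.110 RPKM in the Sox2 WT libraries, with overlapping groups (log2 fold change 0.61, SE 0.570, limma adjusted p = 1.00).

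Ccl8 (ENSMUSG00000009185, chromosome 11, 82115185 to 82116799, GRCm38) encodes a chemokine that in the mouse draws in T helper 2 cells through the receptor CCR8. Its level was 7.20, 12.7 and 8.76 RPKM in the Sox2 KO libraries, from at least 109, 187 and 151 reads, against 3.83, 3.02 and 6.17 RPKM in the Sox2 WT libraries, from at least 47, 43 and 80 reads. The groups did not overlap, with the narrowest gap between Sox2 KO replicate 1 and Sox2 WT replicate 3. The means were 9.54 ± 2.81 RPKM in Sox2 KO and 4.34 ± 1.64 RPKM in Sox2 WT (SD, n = 3 each), a log2 fold change of 1.07, or 0.86 without Sox2 KO replicate 2 and 1.33 without Sox2 WT replicate 3.

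The chemokine genes next to Ccl8 gave different values. Ccl12, 11.8 kb away, was at 0.842, 0.701 and 0.323 RPKM in the Sox2 KO libraries, against 0.454, 0.783 and 0.799 RPKM in the Sox2 WT libraries (log2 fold change -0.09, SE 0.228). Ccl11, the eotaxin gene 52.2 kb away, was the most abundant of them, at 61.3, 67.8 and 65.4 RPKM in the Sox2 KO libraries, against 62.8, 62.7 and 60.3 RPKM in the Sox2 WT libraries (log2 fold change 0.07, SE 0.0993). Ccl7 at 67.7 kb and Ccl2 at 77.7 kb, both ligands of the monocyte receptor CCR2, differed by 0.09 (SE 0.168) and 0.08 (SE 0.220) on the log2 scale. All 4 overlapped between the groups and had a limma adjusted p of 1.00. The difference between Ccl8 and these genes was not tested.

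Retnla and Retnlb encode resistin-like molecules, small secreted proteins. Retnla, also called Fizz1, is a product of alternatively activated macrophages and of eosinophils, and Retnlb is made by goblet cells in worm infection. Both lie on chromosome 16 (GRCm38), Retnlb (ENSMUSG00000022650) at 48816856 to 48818892 and Retnla (ENSMUSG00000061100) 23.7 kb further on at 48842551 to 48844461.

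Retnla was at 8.59, 27.6 and 10.5 RPKM in the Sox2 KO libraries, from at least 76, 238 and 106 reads, against 9.21, 10.3 and 8.84 RPKM in the Sox2 WT libraries, from at least 66, 86 and 67 reads. The lowest of the 6 libraries was Sox2 KO replicate 1, and the groups overlapped. Sox2 KO replicate 2 was at 2.99 times the median of the other 5 libraries. The means were 15.6 ± 10.4 RPKM in Sox2 KO and 9.46 ± 0.776 RPKM in Sox2 WT (SD, n = 3 each), and the log2 fold change of 0.51 became 0.01 without Sox2 KO replicate 2. Retnlg, the neighbouring family member 28.2 kb from Retnla, was at 10.9, 13.2 and 5.47 RPKM in the Sox2 KO libraries, against 6.52, 4.02 and 7.01 RPKM in the Sox2 WT libraries, and overlapped (log2 fold change 0.66, SE 0.331, limma adjusted p = 1.00). Retn itself, the resistin gene, was listed at 0 in all 6 libraries.

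Retnlb was close to the limit of detection. It was at 0.0486, 0.149 and 0.683 RPKM in the Sox2 KO libraries, from at least 1, 3 and 16 reads, and listed at 0 in the 3 Sox2 WT libraries. Of the 20 reads recovered in Sox2 KO, 80.0% came from replicate 3. Pooled over libraries, the 20 Sox2 KO reads were 5.58-fold a limit of 3 reads over the Sox2 WT group, scaled to depth. This pooled value rests on replicate 3 and is no bound for the other Sox2 KO libraries. The 4 reads that Sox2 KO has without replicate 3 are near that limit. In a single Sox2 WT library 3 reads would be 0.155 to 0.180 RPKM, above the values of Sox2 KO replicates 1 and 2. Its mean of 0.147 RPKM put it under the filter. The sum of the goblet cell markers ran from 3741 to 5287 RPKM in Sox2 KO libraries and from 1110 to 2842 RPKM in Sox2 WT libraries. The 3 Sox2 KO values lay above the 3 Sox2 WT values in 4 of the 7 that passed the filter, where 4.09% of all tested genes did. Of the 7, 0 passed the limma test. Much of the sum was Clca3, with a mean of 2599 RPKM in Sox2 KO and 553 RPKM in Sox2 WT, and Agr2 lay the other way, with a mean of 852 RPKM in Sox2 KO and 1201 RPKM in Sox2 WT (log2 fold change -0.48, SE 0.309). The goblet cell sum was lowest among Sox2 KO libraries in replicate 3, the library with most Retnlb reads, and the part of goblet cells in the Retnlb values was not tested.

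Sox2 KO replicate 2 was the highest of the 6 libraries for Siglec5, Arg1, Ccl8 and Retnla. Other markers were high in that library too. Mast cell markers summed to 20.8, 40.8 and 24.7 RPKM in the Sox2 KO libraries, against 18.7 to 22.6 RPKM in Sox2 WT libraries. The mast cell protease Mcpt1 was at 2.56, 8.58 and 3.49 RPKM in the Sox2 KO libraries, against 1.58, 0.418 and 1.92 RPKM in the Sox2 WT libraries. Of the 7 tested mast cell markers, 2 (Mcpt1 and Mcpt2) had Sox2 KO values above all Sox2 WT values, where 4.09% of all tested genes did, and 0 passed the limma test. The median log2 fold change of the 7 was -0.00089, with 3 positive and 4 negative, among them Kit at -0.15 and Tpsb2 at -0.05. The 4 haemoglobin genes, which mark blood in the tissue, summed to 6.46, 11.8 and 7.57 RPKM in the Sox2 KO libraries, against 3.51 to 4.97 RPKM in Sox2 WT libraries. Their sums were thus higher in all 3 Sox2 KO libraries, not in replicate 2 alone. Of the 4, 2 had Sox2 KO values above all Sox2 WT values, where 4.09% of all tested genes did. All 4 were higher at an unadjusted limma p under 0.05, where 2.11% of all tested genes were, and 0 passed the limma test. Macrophage markers did not follow. Their sum ran from 110 to 170 RPKM in Sox2 KO libraries and from 106 to 183 RPKM in Sox2 WT libraries, it was highest in Sox2 WT replicate 3, and all 10 markers overlapped between the groups. C1qb, a complement gene of tissue macrophages, was at 27.4, 24.0 and 19.0 RPKM in the Sox2 KO libraries, against 25.3, 17.9 and 28.2 RPKM in the Sox2 WT libraries. The part of mast cells and blood in the values of Arg1, Ccl8 and Retnla was not tested.

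**Figure D3:**
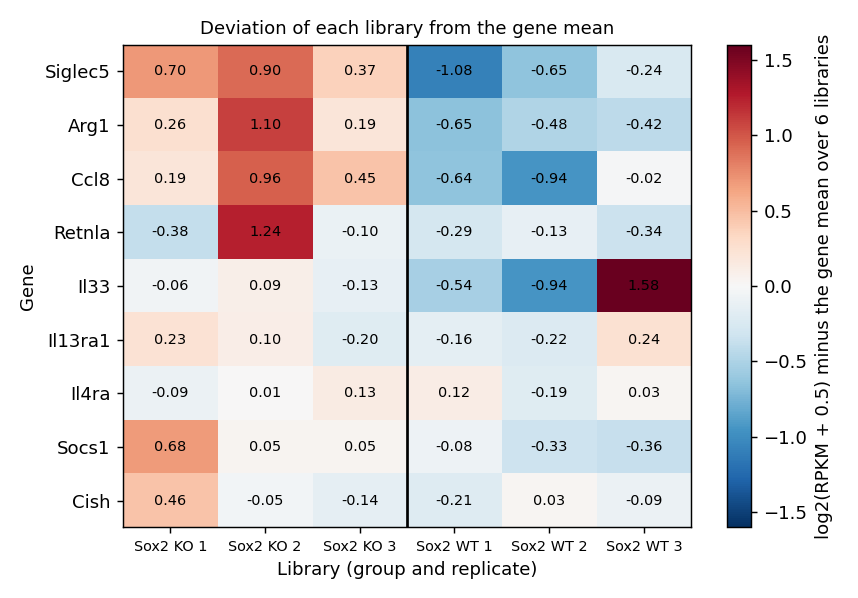
Deviation of log2(RPKM + 0.5) from the gene mean (colour and printed value) for the 9 genes past the filter (rows) in each library (columns, Sox2 KO left and Sox2 WT right of the line). Sox2 KO replicate 2 is highest for the 4 effector genes, Sox2 KO replicate 1 for Socs1 and Cish, and Sox2 WT replicate 3 for Il33, at 1.58.

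The bases before the transcript start are shown for 3 effector genes and for Il33 from the RefSeq promoter table of build GRCm38.p6. They set the separated genes Ccl8 and Siglec5 beside Retnla and Il33, which hold a STAT-type motif. Socs1, also separated, is not printed, and the separated genes Arg1 and Retnlb had no entry. Each window is the 250 bases before the start, 5′ to 3′. Capitals mark a match to TTCNNNNGAA, the spacing that STAT6 prefers, or to TTCNNNGAA, the spacing of other STAT factors. Each motif is its own reverse complement, so a match covers both strands, and a window may hold both.
Retnla, chr16:48842359-48842608, plus strand: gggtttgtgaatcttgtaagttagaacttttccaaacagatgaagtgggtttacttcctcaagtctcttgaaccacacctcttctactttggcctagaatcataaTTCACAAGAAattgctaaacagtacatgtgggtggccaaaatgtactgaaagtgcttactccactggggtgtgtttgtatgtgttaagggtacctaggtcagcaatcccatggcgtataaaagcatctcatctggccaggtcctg
Il33, chr19:29924863-29925112, plus strand: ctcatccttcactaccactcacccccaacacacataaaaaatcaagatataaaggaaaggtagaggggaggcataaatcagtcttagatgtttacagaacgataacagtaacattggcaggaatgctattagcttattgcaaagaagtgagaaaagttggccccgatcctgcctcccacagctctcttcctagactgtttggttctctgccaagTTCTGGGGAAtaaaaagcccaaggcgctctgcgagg
Ccl8, chr11:82114935-82115184, plus strand: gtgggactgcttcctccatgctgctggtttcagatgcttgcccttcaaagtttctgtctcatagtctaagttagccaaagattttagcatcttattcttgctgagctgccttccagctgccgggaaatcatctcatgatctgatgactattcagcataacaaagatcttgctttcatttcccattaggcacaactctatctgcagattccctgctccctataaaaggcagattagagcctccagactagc
Siglec5, chr7:43351091-43351340, plus strand: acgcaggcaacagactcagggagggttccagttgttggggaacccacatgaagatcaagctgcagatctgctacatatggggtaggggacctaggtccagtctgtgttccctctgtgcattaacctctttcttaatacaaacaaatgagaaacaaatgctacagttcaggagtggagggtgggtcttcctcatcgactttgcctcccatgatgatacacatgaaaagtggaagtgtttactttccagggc
Entries were found for 8 of the 10 genes, with 9 windows in all, and Arg1 and Retnlb had none. The Retnla window holds TTCACAAGAA from base -145 and the first Il33 window TTCTGGGGAA from base -36, both of the TTCNNNNGAA spacing and counted back from the start. The second Il33 window and those of Ccl8, Siglec5, Il13ra1, Il4ra, Socs1 and Cish hold neither motif. A match describes the letters only. Of 32851 such windows in the table, 5.85% hold TTCNNNNGAA, 7.02% hold TTCNNNGAA and 12.4% hold either.

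Among the signalling genes, Il33 (ENSMUSG00000024810, chromosome 19, 29925114 to 29960718, GRCm38) encodes the alarmin IL-33, stored in the nuclei of barrier epithelium, endothelium and stroma. It was at 6.82, 7.63 and 6.48 RPKM in the Sox2 KO libraries, from at least 198, 216 and 214 reads, against 4.76, 3.48 and 22.3 RPKM in the Sox2 WT libraries, from at least 112, 95 and 554 reads. The Sox2 KO libraries were alike, and the Sox2 WT libraries fell on both sides of them. The means were 6.98 ± 0.591 RPKM in Sox2 KO and 10.2 ± 10.5 RPKM in Sox2 WT (SD, n = 3 each). The direction rests on 1 library: the log2 fold change was -0.07 with all libraries and 0.71 without Sox2 WT replicate 3, where the Sox2 WT mean was 4.12 RPKM. Against the male Sox2 WT library it was 0.50. Endothelial markers were lowest in Sox2 WT replicate 3, summing to 23.5 RPKM there and to between 27.5 and 35.3 RPKM in the other 5 libraries. Markers of the squamous forestomach summed to 1.75 to 3.23 RPKM in Sox2 KO libraries and 1.11 to 3.28 RPKM in Sox2 WT libraries, with Krt6a listed at 0. Their highest sum, 3.28 RPKM, was in Sox2 WT replicate 3, close to the 3.23 RPKM of Sox2 KO replicate 3. The source of the high Il33 value in Sox2 WT replicate 3 was not tested. Il1rl1, which encodes the IL-33 receptor ST2, was at 2.26, 2.05 and 2.48 RPKM in the Sox2 KO libraries, against 2.82, 1.46 and 4.11 RPKM in the Sox2 WT libraries, and was also highest in Sox2 WT replicate 3 (log2 fold change -0.17, SE 0.289, limma adjusted p = 1.00).

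Il4ra (ENSMUSG00000030748, chromosome 7, 125552120 to 125579474, GRCm38) and Il13ra1 (ENSMUSG00000017057, chromosome X, 36112110 to 36171259, GRCm38) encode the chains of the type II receptor, which binds IL-4 and IL-13. Il4ra was at 6.39, 6.87 and 7.53 RPKM in the Sox2 KO libraries, against 7.44, 5.92 and 6.97 RPKM in the Sox2 WT libraries. The groups overlapped, with a mean of 6.93 ± 0.568 RPKM in Sox2 KO and 6.78 ± 0.781 RPKM in Sox2 WT (SD, n = 3 each) and a log2 fold change of 0.03, or -0.10 against the male Sox2 WT library. Il13ra1 was at 27.0, 24.6 and 19.9 RPKM in the Sox2 KO libraries, against 20.4, 19.5 and 27.2 RPKM in the Sox2 WT libraries. It too overlapped, with 23.8 ± 3.60 RPKM in Sox2 KO and 22.4 ± 4.17 RPKM in Sox2 WT (SD, n = 3 each) and a log2 fold change of 0.09. Il13ra1 is X-linked, and the 2 female libraries held its lowest and its highest value. Il4ra shares exon sequence with Gm44876 on the other strand, and the strandedness of the libraries is not given in the sources used here.

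Socs1 (ENSMUSG00000038037, chromosome 16, 10782240 to 10785536, GRCm38) and Cish (ENSMUSG00000032578, chromosome 9, 107296026 to 107302784, GRCm38) encode SOCS-family inhibitors that cytokine receptors induce through STAT factors. Socs1 was at 1.32, 0.678 and 0.678 RPKM in the Sox2 KO libraries, from at least 48, 24 and 28 reads, against 0.578, 0.410 and 0.386 RPKM in the Sox2 WT libraries, from at least 17, 14 and 12 reads. The groups did not overlap, but at 12 reads counting error alone is 28.9% of the value. The means were 0.893 ± 0.372 RPKM in Sox2 KO and 0.458 ± 0.105 RPKM in Sox2 WT (SD, n = 3 each), and the log2 fold change of 0.51 became 0.30 without Sox2 KO replicate 1 and 0.34 against the male Sox2 WT library.

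Cish was at 27.2, 19.0 and 17.8 RPKM in the Sox2 KO libraries, from at least 1478, 1006 and 1099 reads, against 16.9, 20.1 and 18.4 RPKM in the Sox2 WT libraries, from at least 743, 1024 and 853 reads. Sox2 KO replicate 1 was above the other 5 libraries, which overlapped. The mean was 21.3 ± 5.14 RPKM in Sox2 KO and 18.4 ± 1.58 RPKM in Sox2 WT (SD, n = 3 each), and the log2 fold change of 0.18 became -0.00054 without Sox2 KO replicate 1. Cish shares exon sequence with Gm17040 and Gm17041 on the other strand. Socs1 and Cish were thus both highest in Sox2 KO replicate 1.

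By mean level the signalling genes Il13ra1 and Cish came first in both groups. In Sox2 KO the order was Il13ra1, Cish, Retnla, Ccl8, Il33, Il4ra, Siglec5, Arg1, Socs1 and Retnlb. Neighbours in it had overlapping values except Il4ra above Siglec5 and Arg1 above Socs1. In Sox2 WT the order was Il13ra1, Cish, Il33, Retnla, Il4ra, Ccl8, Siglec5, Arg1, Socs1 and Retnlb, and 4 neighbouring pairs were separated: Retnla above Il4ra, Ccl8 above Siglec5, Arg1 above Socs1, and Socs1 above Retnlb. Measured by the mean absolute difference between the deviations from each gene's own mean over the 6 libraries, Arg1 and Ccl8 were each other's nearest gene of the 9, at 0.22 on the log2 scale. Arg1 was also the nearest to Siglec5, at 0.26, and to Retnla, at 0.31. Il13ra1 and Cish were each other's nearest, at 0.18, and Il33 lay at 0.47 from its nearest gene, Il13ra1. The distances span both groups, so they contain the difference by which the genes were chosen. Genes with alike fold changes lie close by this measure, as do genes that vary little. Whether genes vary together within a group was not tested.

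The other genes of the pathway were taken from 8 lists that do not contain the 10 genes. Of 77 such genes, 48 passed the filter, and 0 passed the test in either direction (limma, smallest adjusted p 0.9995, and 0 by voom). An unadjusted p under 0.05 was reached by 5, all higher in Sox2 KO, where 2.11% of all tested genes were under it and higher. Their median log2 fold change was 0.02, as over all tested genes, with 26 positive and 22 negative. The 3 Sox2 KO values lay above the 3 Sox2 WT values in 3 of the 48 (6.25%) and below them in 2 (4.17%). Of all tested genes 4.09% lay above and 2.99% below, so these counts are near the share over all genes.

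The cytokines at the head of the pathway were scarcely detected. Il4 had at least 7, 4 and 4 reads in the Sox2 KO libraries, against 0, 0 and at least 3 reads in the Sox2 WT libraries. Its Sox2 KO values all lay above its Sox2 WT values, but the level of 0.0967 RPKM in Sox2 KO replicate 3 was close to the 0.0964 RPKM of Sox2 WT replicate 3. Il13 averaged 0.0461 RPKM in Sox2 KO and 0.0333 RPKM in Sox2 WT. Il5 averaged 0.0442 RPKM in Sox2 KO and 0.00852 RPKM in Sox2 WT. Il25, the tuft cell alarmin, was at 0.253, 0.0973 and 0.278 RPKM in the Sox2 KO libraries, against 0.0781, 0.134 and 0.0739 RPKM in the Sox2 WT libraries, and overlapped. All 4 were under the filter and were not tested, and so few reads do not allow a difference to be read. Tslp, another epithelial alarmin, averaged 0.565 RPKM in Sox2 KO and 0.540 RPKM in Sox2 WT (log2 fold change 0.08, SE 0.245), and the growth factor gene Areg 24.4 RPKM in Sox2 KO and 28.5 RPKM in Sox2 WT (log2 fold change -0.29, SE 0.380). Both overlapped and had a limma adjusted p of 1.00.

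Among 9 tested receptor genes the median log2 fold change was -0.03. Il17rb, which encodes a chain of the IL-25 receptor, was at 0.897, 1.30 and 0.693 RPKM in the Sox2 KO libraries, against 0.467, 0.436 and 0.656 RPKM in the Sox2 WT libraries. Its groups did not overlap, and the log2 fold change of 0.51 (SE 0.191) did not pass the test (limma adjusted p = 1.00). Il17ra, the shared chain of that receptor, averaged 5.31 RPKM in Sox2 KO and 5.56 RPKM in Sox2 WT, and the TSLP receptor gene Crlf2 1.15 RPKM in Sox2 KO and 1.29 RPKM in Sox2 WT.

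The kinases and STAT factors were abundant and close to equal between the groups. Stat6 was at 34.1, 30.1 and 28.0 RPKM in the Sox2 KO libraries, against 29.2, 29.5 and 34.4 RPKM in the Sox2 WT libraries (log2 fold change -0.01, SE 0.120). Jak1 and Jak2, which encode kinases of these receptors, differed on the log2 scale by -0.01 (SE 0.152) and 0.0049 (SE 0.156). Jak3, the kinase of the shared gamma chain, averaged 1.92 RPKM in Sox2 KO and 2.32 RPKM in Sox2 WT without overlap, the 1 gene of these 10 that was separated (log2 fold change -0.22, SE 0.113, limma adjusted p = 1.00).

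The rest of the SOCS family gave separated values in both directions. Socs2, an inhibitor of growth hormone signalling, was at 3.43, 3.22 and 2.91 RPKM in the Sox2 KO libraries, against 2.02, 2.82 and 2.05 RPKM in the Sox2 WT libraries (log2 fold change 0.41, SE 0.146). Socs5 averaged 3.71 RPKM in Sox2 KO and 4.28 RPKM in Sox2 WT (log2 fold change -0.18, SE 0.116). Neither passed the limma test over all genes (adjusted p = 1.00 for both). Socs3, the most abundant, was at 30.8, 21.7 and 23.6 RPKM in the Sox2 KO libraries, against 24.2, 19.2 and 33.8 RPKM in the Sox2 WT libraries and overlapped, as did Socs4 and Socs7, with log2 fold changes of -0.06 (SE 0.118) and -0.12 (SE 0.129).

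Of the 9 tested genes of the STAT6 target list 0 passed. Their median log2 fold change was 0.20 and all 9 were positive, where 56.8% of all tested genes were. Against the male Sox2 WT library Mrc1 was at -0.11 and Cdh1 at -0.03, and without Sox2 KO replicate 1 Mrc1 was at -0.02 and Cdh1 at -0.06. Ccl24, which encodes an eotaxin of macrophages, was at 1.23, 0.936 and 0.252 RPKM in the Sox2 KO libraries, against 0.354, 0.139 and 0.183 RPKM in the Sox2 WT libraries. Sox2 KO replicate 3 lay within the Sox2 WT range, and the log2 fold change came to 0.77 (SE 0.313, limma adjusted p = 1.00). Alox15 averaged 2.59 RPKM in Sox2 KO and 1.73 RPKM in Sox2 WT with overlap (log2 fold change 0.47, SE 0.180, limma adjusted p = 1.00). The mannose receptor gene Mrc1, a marker of alternatively activated macrophages, averaged 3.23 RPKM in Sox2 KO and 2.62 RPKM in Sox2 WT (log2 fold change 0.22, SE 0.262). Of the most abundant, Pparg differed by 0.15 (SE 0.177) and the adhesion gene Cdh1 by 0.07 (SE 0.184) on the log2 scale.

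Of the 6 tested genes among monocyte chemokines and chemokine receptors, Ccl9 was separated, at 2.75, 2.92 and 3.08 RPKM in the Sox2 KO libraries, against 2.33, 1.76 and 2.52 RPKM in the Sox2 WT libraries (log2 fold change 0.35, SE 0.142, limma adjusted p = 1.00). Ccl6 overlapped, with a log2 fold change of 0.34 (SE 0.344). Ccr8, the receptor of mouse CCL8, averaged 0.0688 RPKM in Sox2 KO and 0.0226 RPKM in Sox2 WT. Il18, which like Il33 encodes an IL-1 family cytokine, was at 207, 168 and 106 RPKM in the Sox2 KO libraries, against 141, 168 and 225 RPKM in the Sox2 WT libraries (log2 fold change -0.18, SE 0.277). All 11 genes of the type 1 and type 17 responses were under the filter. Ifng, Il17a and Il22 were listed at 0 in all 6 libraries, and the 3 most abundant, Cxcl10, Il12a and Nos2, averaged 0.172, 0.218 and 0.145 RPKM in Sox2 KO and 0.295, 0.0657 and 0.132 RPKM in Sox2 WT. Markers of innate lymphoid and T cells summed to 4.78 to 6.34 RPKM in Sox2 KO libraries and 4.78 to 6.64 RPKM in Sox2 WT libraries, and the 4 that passed the filter all had overlapping groups. B and plasma cell markers summed to 20.8 to 40.7 RPKM in Sox2 KO libraries and 27.4 to 30.5 RPKM in Sox2 WT libraries. Fibroblast markers ran from 462 to 506 RPKM in Sox2 KO and from 409 to 546 RPKM in Sox2 WT, and smooth muscle markers from 416 to 674 RPKM in Sox2 KO and from 446 to 707 RPKM in Sox2 WT.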

How the data were processed

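RNA from the pylorus of 3 Sox2 KO and 3 Sox2 WT samples was sequenced, and the groups were taken from the sample titles. RPKM were computed by the authors and deposited for 39179 genes, and the submitters' processing notes list CASAVA 1.7, STAR and build mm10. The counter, the annotation and the strandedness were not given in the sources used here. Each column of the combined table equals its library's own table. Coordinates are from GENCODE release 21 for mouse on GRCm38, which is mm10, where 37607 of the deposited identifiers matched, and promoter sequences from RefSeq. Siglec5 was matched to Siglecf by its identifier.

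Whole reads were recovered for 99.7% of the genes above 0, within a tolerance of 1e-05 reads, as the smallest whole numbers that give the deposited ratios between libraries. They are therefore lower bounds ("at least"), and counting errors cover counting alone.

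limma 3.58.1 under R 4.3.3 was fitted to log2(RPKM + 0.5) (mean-variance trend, Benjamini-Hochberg adjustment over all genes, threshold 0.05, two-sided) over the 14045 genes with a mean of at least 0.5 RPKM. Where a symbol had several rows, the most abundant was used. The fold changes of low genes are understated on this scale. The script was tested on simulated data. The 10 genes, the lists and the alternatives were chosen with earlier results of these data known. Named genes are the 10, the separated pathway genes with a mean of at least 0.5 RPKM, up to 3 per pathway list with the highest mean and Sox2, Xist and Ddx3y. Il4, Il5, Il13, Il1rl1, Ccl2, Ccl12, Ccl24, Ccr8, Alox15, Mrc1, Prg2, Ear2, Ccr3, Clca3, Agr2, Kit, Tpsb2, Mcpt1, Mcpt2, C1qb and the tuft cell genes were named after their values were seen. Alox15, Ccr3 and Il5ra stand in an eosinophil and a pathway list, Mrc1 in the macrophage and the STAT6 list, Il7r in the lymphoid and the receptor list, and Il25 in the tuft cell and the ligand list. The replicate numbers did not pair the samples.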

Additional observations from a re-analysis of the deposited data

How the results depend on the processing

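The results were recomputed under 18 alternatives. The count of all genes past the threshold was 4. It was 1 with the replicate block, 1 with sex as a covariate, 0 in the male libraries alone and 8 with voom on recovered reads, and ranged from 1 to 8 when 1 library was left out, with 8 without Sox2 KO replicate 1, 7 without Sox2 WT replicate 1, and 1 without Sox2 KO replicate 2 or without Sox2 WT replicate 3. For the pathway lists it was 0 of the tested genes under each of the 18. Over the 10 genes, the number past the filter whose Sox2 KO values all lay above the Sox2 WT values, 4 of 9, was between 3 and 6 under the 18 alternatives, with 6 in the male libraries alone, where Sox2 WT has 1 library, and 3 of 8 at a filter of 1 RPKM. Of 161 recomputed fold changes of these genes, 4 moved by more than the SD within groups and 8 changed sign, in Il33, Il4ra and Cish. The filters on low values, the variance settings and the replicate block cannot change a fold change, so many of the 161 repeat the main value. Sex as a covariate and the male libraries alone gave identical fold changes. The count of separated genes likewise cannot move with the pseudocount, the variance settings, the replicate block or the sex covariate. The fold change ran from -0.55 to 0.71 for Il33, from 0.01 to 0.82 for Retnla, from 0.74 to 1.36 for Arg1, from 0.86 to 1.33 for Ccl8 and from 1.07 to 1.73 for Siglec5, and the cause was not tested. The correlations of same-numbered samples' deviations from their group means were 0.00879, 0.0970 and -0.0740, so the numbers gave no pairing, and 1 of the 3 Sox2 KO libraries, replicate 2, correlated best with its own number. Socs1 and Retnlb are limited by reads, and fitting 3 against 3 with sex unbalanced limits the rest.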
